A study of Mus musculus with 8 samples.

Results

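The acute phase response genes examined here are 35 genes for plasma proteins that the liver makes more of, or less of, during inflammation, together with receptors and regulators of that response. They were chosen by gene name, and each was read from its brightest probe over all groups. Of the 35, 33 have a probe under their name among the 27745 names on the array, and all 33 were well above background on all 8 arrays and entered the fit of 17107 genes. Hpx and Alb have none under those names. The array carries the older names Hpxn and Alb1, whose values are given apart from the counts.

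In the acute phase response, macrophages and other cells that sense injury or microbes release interleukin-1, interleukin-6 and tumour necrosis factor. Interleukin-6 acts on hepatocytes through its receptor and the transcription factor STAT3, and interleukin-1 and tumour necrosis factor through NF-kappaB, while C/EBP factors bind many of the target promoters. Serum amyloid A, serum amyloid P, orosomucoid and fibrinogen then rise in mouse plasma, whereas albumin and transthyretin fall.

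Total RNA from liver was measured on one-colour arrays in 4 groups of 2 arrays: KKAy mice at 11 weeks, KKAy mice at 4 weeks, C57BL/6J mice at 11 weeks and C57BL/6J mice at 4 weeks. KKAy mice bear the yellow allele of agouti on the KK background and become obese and diabetic, and C57BL/6J is a common laboratory strain without that allele. By the labels KKAy stands for diabetes and C57BL/6J for the normal state. The mice of all groups ate chow and were fasted overnight. The labels do not state sex, and the strains differ at many loci besides agouti. Whether such differences lie under probes was not tested.

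Whether the replicates were separate animals is not stated, so the p-values reflect the spread between samples that may be technical repeats, and the number of arrays limits the precision. The 11-week groups were on slide 2 and the 4-week groups on slide 1, and on both slides KKAy and C57BL/6J took different positions. Age cannot be told apart from slide, nor strain from position. The 75th percentile of signal ran from 491.6 to 1241 fluorescence units per array, and 56.3% to 66.7% of probes were well above background. Replicate arrays had a median SD of 0.222 in KKAy at 11 weeks, 0.194 in KKAy at 4 weeks, 0.126 in C57BL/6J at 11 weeks and 0.179 in C57BL/6J at 4 weeks, on the log2 scale. All 10 hepatocyte markers were measured. Their summed signal, in multiples of each array's 75th percentile, was 1973 to 1979 in KKAy and 2339 to 2447 in C57BL/6J at 11 weeks, and 1877 to 1956 in KKAy and 1733 to 2111 in C57BL/6J at 4 weeks. By limma 5 of the 10 were lower in KKAy at 11 weeks (Cps1, Tat, G6pc, Arg1 and Tdo2) and 2 at 4 weeks (Tat and G6pc). That is 50% and 20% of the 10, against 11.6% and 9.01% of all genes lower. The part of these markers in the differences of the liver-made members was not tested. In bulk liver, fewer cells of a type and less RNA per cell cannot be told apart.

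The promoters of 7 members are printed because these members were called at both ages with a KKAy minus C57BL/6J difference of at least 1.5 on the log2 scale at each. Each window runs 5′ to 3′ from 250 bases before to 50 bases after the annotated start, from RefSeq on GRCm38.p6, and capitals mark matches to the motifs given after the sequences. They lie at chr7:46742931-46743230 (minus strand) for Saa1, chr7:46751583-46751882 (plus strand) for Saa2, chr7:46715627-46715926 (minus strand) for Saa3 and chr4:63355908-63356207 (plus strand) for Orm3. Apcs lies at chr1:172895005-172895304 (minus strand), Crp at chr1:172697806-172698105 (plus strand) and Lcn2 at chr2:32387690-32387989 (minus strand).
Saa1: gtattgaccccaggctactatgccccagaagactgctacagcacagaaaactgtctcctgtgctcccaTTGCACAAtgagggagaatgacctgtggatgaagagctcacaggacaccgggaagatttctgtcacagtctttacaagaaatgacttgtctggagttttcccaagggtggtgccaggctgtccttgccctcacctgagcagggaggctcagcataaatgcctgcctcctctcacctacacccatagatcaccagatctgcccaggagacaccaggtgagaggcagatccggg
Saa2: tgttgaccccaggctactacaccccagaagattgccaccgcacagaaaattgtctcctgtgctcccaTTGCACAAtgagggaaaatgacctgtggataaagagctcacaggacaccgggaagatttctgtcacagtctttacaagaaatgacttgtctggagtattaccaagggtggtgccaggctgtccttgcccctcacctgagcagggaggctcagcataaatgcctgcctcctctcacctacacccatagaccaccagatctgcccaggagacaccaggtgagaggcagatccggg
Saa3: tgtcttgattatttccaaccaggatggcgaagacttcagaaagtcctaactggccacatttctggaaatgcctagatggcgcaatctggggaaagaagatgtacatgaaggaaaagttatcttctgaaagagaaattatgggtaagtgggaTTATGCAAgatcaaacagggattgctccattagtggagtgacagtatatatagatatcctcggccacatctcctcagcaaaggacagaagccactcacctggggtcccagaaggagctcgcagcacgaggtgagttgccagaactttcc
Orm3: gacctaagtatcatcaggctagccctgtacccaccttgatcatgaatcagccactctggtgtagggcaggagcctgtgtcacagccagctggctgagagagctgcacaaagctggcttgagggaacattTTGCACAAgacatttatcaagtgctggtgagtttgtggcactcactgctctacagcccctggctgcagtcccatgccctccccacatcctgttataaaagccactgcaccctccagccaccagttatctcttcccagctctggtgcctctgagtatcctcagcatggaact
Apcs: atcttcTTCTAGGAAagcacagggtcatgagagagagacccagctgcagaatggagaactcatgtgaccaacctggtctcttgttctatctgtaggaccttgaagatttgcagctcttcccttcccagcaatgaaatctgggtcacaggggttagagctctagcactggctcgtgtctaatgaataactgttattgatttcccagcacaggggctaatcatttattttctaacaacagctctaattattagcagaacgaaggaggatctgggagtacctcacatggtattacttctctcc
Crp: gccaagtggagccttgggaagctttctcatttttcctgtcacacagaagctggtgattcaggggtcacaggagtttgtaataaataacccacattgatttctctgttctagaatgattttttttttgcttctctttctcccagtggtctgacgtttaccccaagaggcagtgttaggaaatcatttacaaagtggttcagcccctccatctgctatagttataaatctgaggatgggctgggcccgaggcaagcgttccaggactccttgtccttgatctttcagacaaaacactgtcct
Lcn2: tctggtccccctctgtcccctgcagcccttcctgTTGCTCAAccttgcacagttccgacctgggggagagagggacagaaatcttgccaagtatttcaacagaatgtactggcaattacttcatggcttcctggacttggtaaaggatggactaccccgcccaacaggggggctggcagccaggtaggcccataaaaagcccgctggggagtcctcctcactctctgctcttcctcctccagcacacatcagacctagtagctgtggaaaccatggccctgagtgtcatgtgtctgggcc

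A window was found for 28 of the 35 members. The C/EBP motif TTGCNNAA, or TTNNGCAA on the other strand, is in 15 of the 28 (53.6%), against 10.8% of all 32851 windows of that length. Among the printed windows it is at position -182 of Saa1 and -183 of Saa2 as TTGCACAA, at -121 of Orm3 with the same letters, at -99 of Saa3 as TTATGCAA and at -216 of Lcn2 as TTGCTCAA, counted from the start. The STAT motif TTCNNNGAA, which reads the same on both strands, is in 5 of the 28 (17.9%), against 8.3% of all windows, and stands at -244 of Apcs as TTCTAGGAA. An NF-kappaB pattern, GGG, any 2 bases and TTTCC on either strand, is in 1 member window, that of Il1rn (3.57%), against 1.63% of all. NF-kappaB sites with other letters were not searched. The Crp window holds none of the 3 patterns. Saa1 and Saa2, which face opposite strands, share 95.3% of aligned positions in this window, whereas every other pair of the 7 shares 42.4% to 51.3%. A match describes these letters of the reference genome and is not a site shown to be bound. The promoter sequences of KKAy mice were not examined.

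At 11 weeks, 17 of the 33 members were higher in KKAy than in C57BL/6J and 2, Itih2 and Il1rn, were lower. The calls are those of limma with a Benjamini-Hochberg adjusted p under 0.05 over all genes tested. They make up 57.6% of the members, against 21.5% of all genes, of which 9.94% were higher and 11.6% lower. The median member difference was 0.43, against -0.00094 over all genes, on the log2 scale of all differences below. The higher members included all 4 serum amyloid A genes, all 3 orosomucoids and both pentraxins. At 4 weeks, 13 members were higher in KKAy (39.4%, median 0.61), against 15.4% of all genes called, 6.37% higher and 9.01% lower. No member passed the threshold as lower by limma at 4 weeks, where 2 were lower at an unadjusted p under 0.05.

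**Figure D1:**
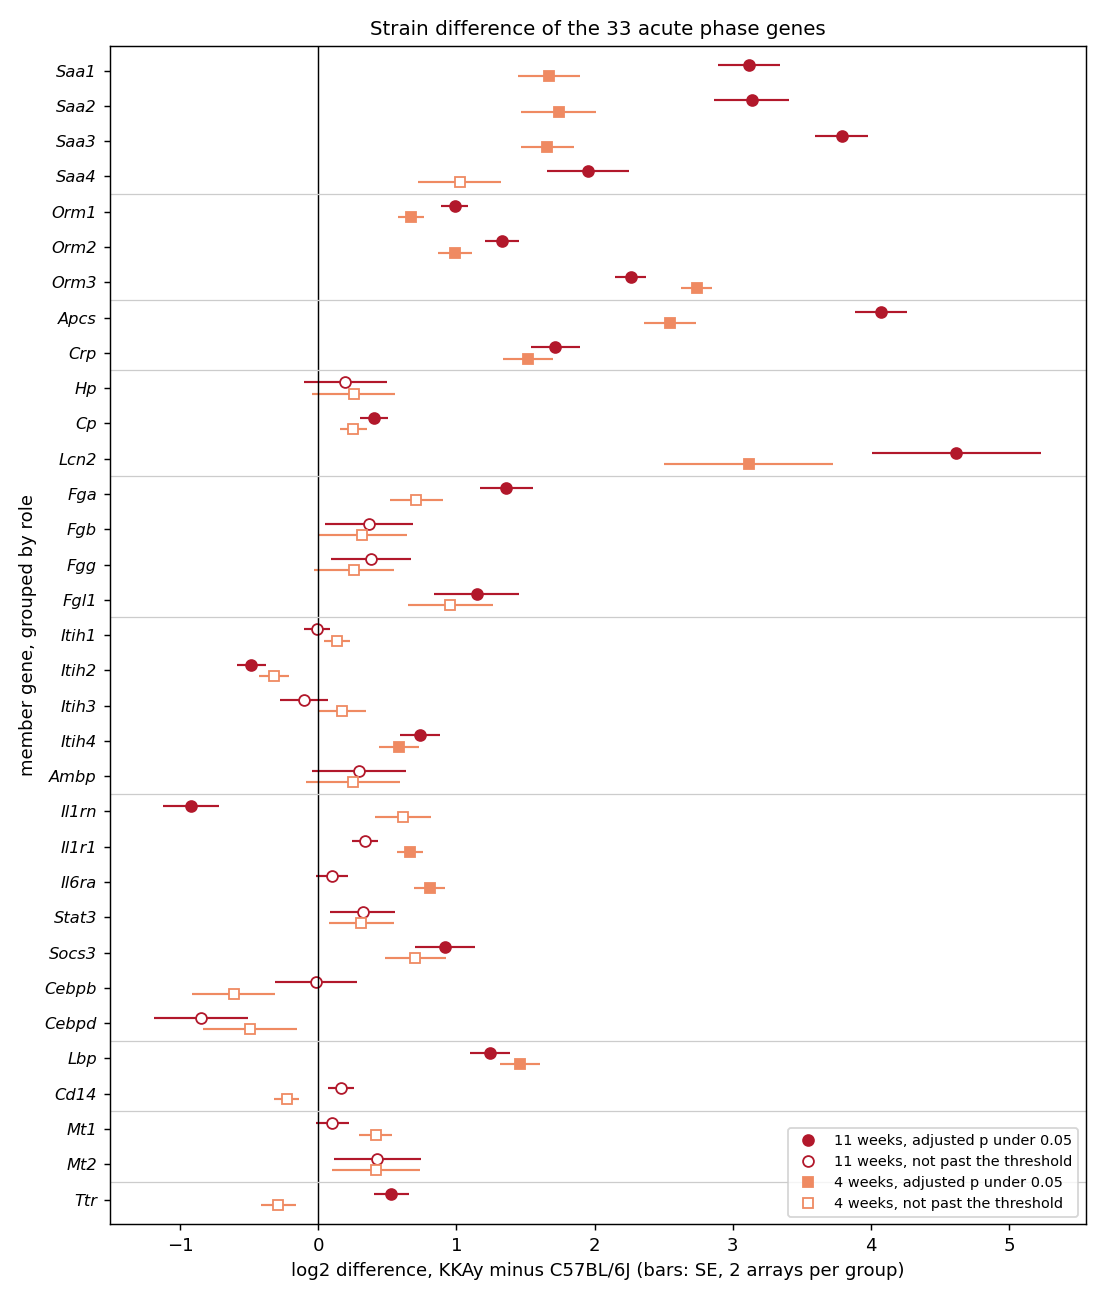
Difference between KKAy and C57BL/6J (x axis, log2, KKAy minus C57BL/6J) for each of the 33 members (y axis, grouped by role), at 11 weeks (circles) and 4 weeks (squares), with bars of 1 SE from 2 arrays per group and filled symbols for calls. The serum amyloid A, orosomucoid and pentraxin genes and Lcn2 lie to the right at both ages, and most inter-alpha inhibitor genes lie near 0.

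A total of 11 members were called at both ages, and all 11 were higher in KKAy at both: Saa1, Saa2, Saa3, Orm1, Orm2, Orm3, Apcs, Crp, Lcn2, Lbp and Itih4. Another 8 passed at 11 weeks and not at 4 (Saa4, Fga, Fgl1, Cp, Itih2, Il1rn, Socs3 and Ttr), and 2 passed at 4 weeks and not at 11 (Il1r1 and Il6ra). The remaining 12 passed at neither age in the fit of group means: Hp, Fgb, Fgg, Itih1, Itih3, Ambp, Stat3, Cebpb, Cebpd, Cd14, Mt1 and Mt2. Passing at 1 age alone does not show that the ages differ, and the test of that difference is given further on.

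Serum amyloid A proteins ride on high-density lipoprotein and are among the most inducible plasma proteins of the mouse. Their 4 genes lie within 41.6 kb of chromosome 7, with probes between 46580703 and 46622266 (mm8). Saa3, an inducible form also made by macrophages and adipocytes, was at 7.41 and 7.77 in KKAy at 11 weeks, at 4.11 and 4.42 in KKAy at 4 weeks, at 3.71 and 3.90 in C57BL/6J at 11 weeks and at 2.47 and 2.75 in C57BL/6J at 4 weeks. These levels, and all those below, are log2 signal relative to the array's 75th percentile. The KKAy arrays lay above the C57BL/6J arrays at each age, and the KKAy arrays of 11 weeks stood far above all others. By limma, the difference was 3.79 at 11 weeks (SE 0.19, adjusted p = 0.000185, 13.8-fold) and 1.66 at 4 weeks (adjusted p = 0.00344, 3.15-fold).

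Saa1, a major circulating form, was at 9.25 and 9.70 in KKAy at 11 weeks, 6.52 and 6.88 in KKAy at 4 weeks, 6.24 and 6.47 in C57BL/6J at 11 weeks and 4.86 and 5.20 in C57BL/6J at 4 weeks. Saa2, its near-identical neighbour, was at 9.19 and 9.67 in KKAy at 11 weeks, 6.28 and 6.76 in KKAy at 4 weeks, 6.14 and 6.45 in C57BL/6J at 11 weeks and 4.55 and 5.01 in C57BL/6J at 4 weeks. The strains did not overlap at either age for either gene, and for both genes the C57BL/6J arrays of 11 weeks came close to the KKAy arrays of 4 weeks. The differences were 3.12 for Saa1 (SE 0.22) and 3.14 for Saa2 (SE 0.27) at 11 weeks, and 1.67 and 1.74 at 4 weeks. Each passed the threshold in limma (adjusted p = 0.000529 and 0.00096 at 11 weeks, 0.00568 and 0.00935 at 4 weeks). A second probe of Saa1 gave 3.54 and 1.86. How far a probe of Saa1 or Saa2 also reads the other gene was not tested, and the near-identity extends to the promoters printed above. The 4-week call of Saa2 was lost without replicate 1 of C57BL/6J at 4 weeks (adjusted p = 0.0566) and without replicate 2 of KKAy at 4 weeks (adjusted p = 0.0529).

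Saa4, the constitutive member of the family, was at 5.92 and 6.48 in KKAy at 11 weeks and at 4.05 and 4.44 in C57BL/6J at 11 weeks. At 4 weeks it was at 4.67 and 5.15 in KKAy and at 3.63 and 4.14 in C57BL/6J. Although the strains did not overlap at either age, only the 11-week difference passed in limma (1.95, SE 0.30, adjusted p = 0.00725), and that at 4 weeks was 1.02 (adjusted p = 0.0776). The 11-week call was lost without replicate 1 of C57BL/6J at 11 weeks (1.75, adjusted p = 0.0577). A second Saa4 probe showed 2.86 and 1.29, in the same direction.

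**Figure D2:**
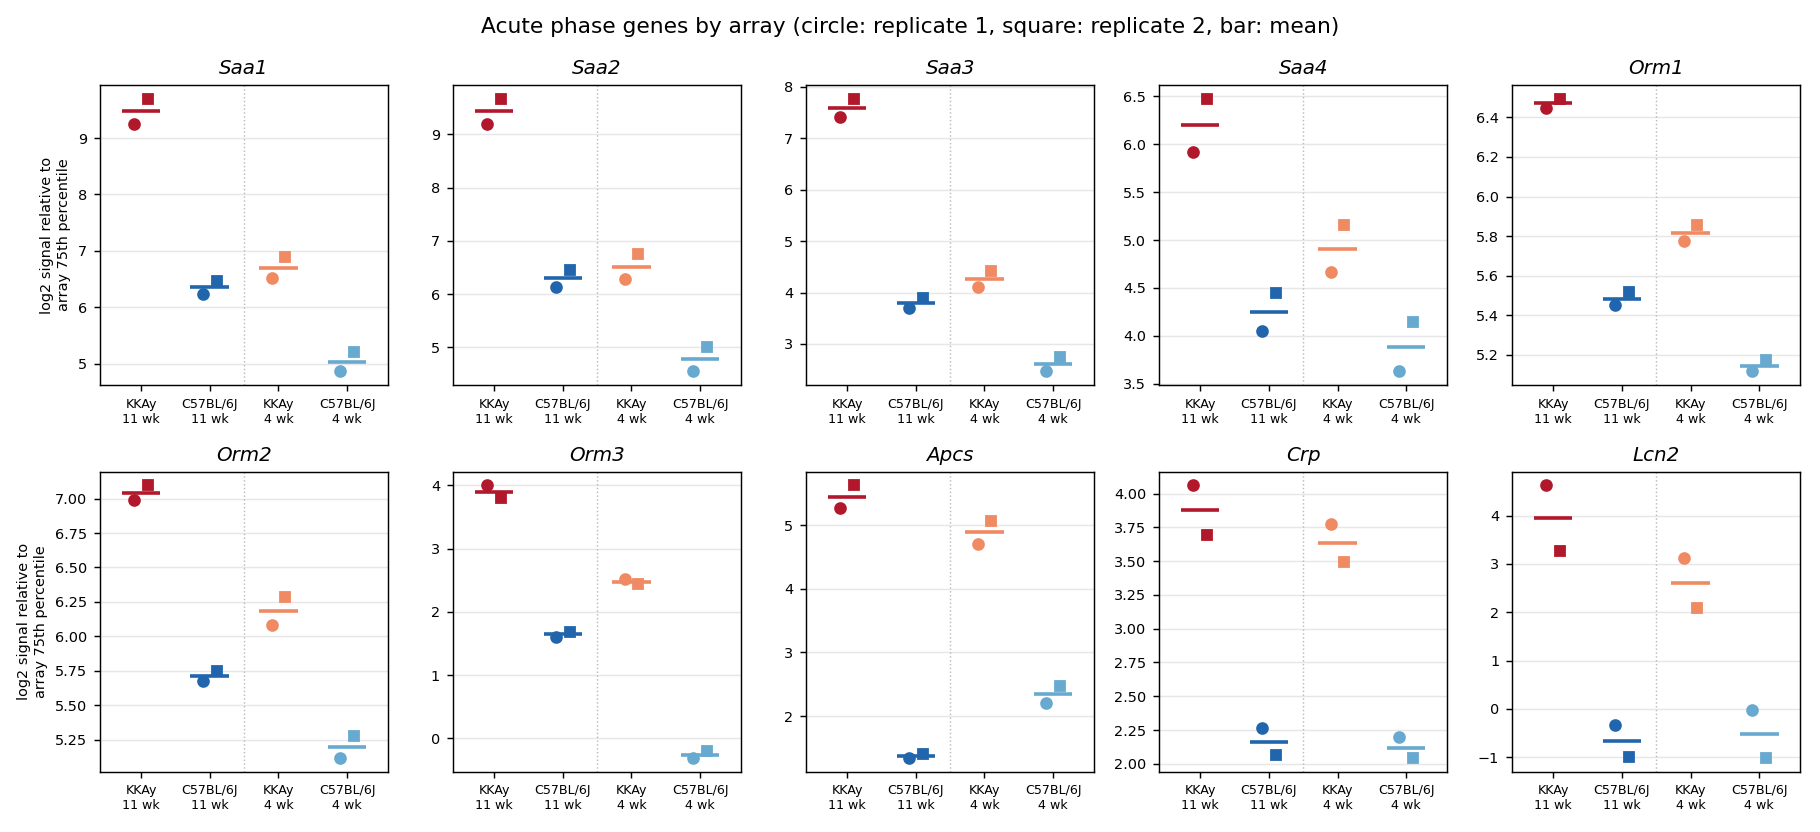
Levels on each array (y axis, log2 signal relative to the array's 75th percentile, a separate scale per gene) of the serum amyloid A, orosomucoid and pentraxin genes and Lcn2 in KKAy and C57BL/6J at 11 weeks (left of the dotted line) and 4 weeks (right of it), with a bar at the mean of each pair of arrays. In every panel both KKAy arrays lie above both C57BL/6J arrays of the same age.

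Orosomucoids, also called alpha-1-acid glycoproteins, carry basic drugs and lipids in plasma. The 3 genes lie within 18.6 kb of chromosome 4 (62831810 to 62850365, mm8) and are similar enough that cross-reading of their probes was not tested. Orm3 was at 4.00 and 3.81 in KKAy at 11 weeks, 2.52 and 2.44 in KKAy at 4 weeks, 1.61 and 1.68 in C57BL/6J at 11 weeks and -0.32 and -0.21 in C57BL/6J at 4 weeks. The 4 groups did not overlap, and the 2 arrays of each lay close together. By limma its difference was 2.26 at 11 weeks (SE 0.11, adjusted p = 0.000185, 4.79-fold) and 2.74 at 4 weeks (adjusted p = 0.000149, 6.67-fold), the smallest adjusted p of any member at 4 weeks.

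Orm2 was at 6.99 and 7.10 in KKAy at 11 weeks, 6.09 and 6.28 in KKAy at 4 weeks, 5.68 and 5.75 in C57BL/6J at 11 weeks and 5.11 and 5.28 in C57BL/6J at 4 weeks. Its groups did not overlap, with differences of 1.33 at 11 weeks (SE 0.12) and 0.99 at 4 weeks, called by limma (adjusted p = 0.0012 and 0.00417). Orm1 was at 6.45 and 6.49 in KKAy at 11 weeks and at 5.45 and 5.52 in C57BL/6J at 11 weeks, which gave 0.99 (adjusted p = 0.00149 in limma). At 4 weeks Orm1 was at 5.78 and 5.86 in KKAy and at 5.12 and 5.18 in C57BL/6J. That difference of 0.67 passed in limma (adjusted p = 0.00717), but not in a fit of the 4 arrays of the comparison alone (adjusted p = 0.0634). Leaving out replicate 1 of C57BL/6J (0.64) or replicate 2 of KKAy (0.63) at 4 weeks ended the call too.

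Pentraxins are ring-shaped proteins that bind microbial surfaces and cell debris. Apcs encodes serum amyloid P, the main inducible pentraxin of the mouse, and Crp encodes C-reactive protein, which is only weakly inducible in this species. Their probes together span 196 kb of chromosome 1, at 174731503 to 174731562 for Apcs and 174535996 to 174536055 for Crp (mm8). Apcs was at 5.27 and 5.63 in KKAy at 11 weeks, 4.71 and 5.07 in KKAy at 4 weeks, 1.34 and 1.41 in C57BL/6J at 11 weeks and 2.21 and 2.47 in C57BL/6J at 4 weeks. All 4 KKAy arrays lay far above all 4 C57BL/6J arrays, and the lowest pair was C57BL/6J at 11 weeks. The difference was 4.07 at 11 weeks (SE 0.19, 16.8-fold, adjusted p = 0.000147) and 2.55 at 4 weeks (5.84-fold, adjusted p = 0.00077) by limma.

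Crp was at 4.06 and 3.69 in KKAy at 11 weeks, 3.78 and 3.50 in KKAy at 4 weeks, 2.26 and 2.06 in C57BL/6J at 11 weeks and 2.20 and 2.04 in C57BL/6J at 4 weeks. The levels fell into a high pair of groups and a low pair that followed strain, with both ages overlapping within each strain. By limma, Crp was higher in KKAy by 1.71 at 11 weeks (SE 0.18, adjusted p = 0.0018, 3.28-fold) and by 1.52 at 4 weeks (adjusted p = 0.0035, 2.86-fold).

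Lcn2 encodes lipocalin 2, which withholds iron from bacteria by binding their siderophores and is made by hepatocytes and by neutrophils. It was at 4.63 and 3.27 in KKAy at 11 weeks, 3.11 and 2.08 in KKAy at 4 weeks, -0.34 and -1.0 in C57BL/6J at 11 weeks and -0.02 and -1.02 in C57BL/6J at 4 weeks. The strains did not overlap, but the 2 arrays of a group lay wide apart, and replicate 1 was the higher in every group. The difference was 4.62 at 11 weeks (SE 0.61, 24.6-fold, adjusted p = 0.0045 in limma) and 3.12 at 4 weeks (8.67-fold, adjusted p = 0.0217). Over the 17 alternatives in processing, the 11-week difference ran from 3.94 to 5.30 and kept its call. The 4-week call was lost in 3 of the 17. They were no filter on dim probes (limma adjusted p = 0.0537) and leaving out replicate 2 of C57BL/6J (2.61) or replicate 1 of KKAy (2.60) at 4 weeks.

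Of 12 neutrophil markers 6 were tested, and 2 of the 6, S100a8 and S100a9, which myeloid cells make in quantity, were higher in KKAy at 11 weeks, by 1.58 and 2.32. Calls made up 33.3% of the 6 at each age, against 21.5% of all genes at 11 weeks and 15.4% at 4 weeks. Ltf, Mpo and Retnlg differed by 0.26 to 0.49 and Mmp9 by -1.23, short of the threshold (limma adjusted p = 0.0612 for Mmp9), while Ngp, Camp, Elane, Mmp8 and Cxcr2 were not well above background in any group. The summed signal of the list was 5.81 to 8.06 in KKAy at 11 weeks and 1.40 to 1.74 in C57BL/6J at 11 weeks, most of it from S100a9, whose level was 2.40 and 2.91 in KKAy and 0.15 and 0.52 in C57BL/6J. At 4 weeks the sum was 2.98 to 3.97 in KKAy and 2.04 to 2.65 in C57BL/6J, with Ltf higher by 0.92 and Mmp9 lower by -1.80 (-0.30 after normexp background correction, which draws dim signals together). The part of these cells in the Lcn2 difference was not tested.

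The other binders of haem and iron gave smaller measured differences than Lcn2. Hp was among the very bright genes whose limit is given further on. Hp encodes haptoglobin, which captures free haemoglobin, and was at 9.12 and 9.60 in KKAy at 11 weeks, 8.59 and 9.16 in KKAy at 4 weeks, 9.06 and 9.26 in C57BL/6J at 11 weeks and 8.31 and 8.93 in C57BL/6J at 4 weeks. The strains overlapped at both ages, with differences of 0.20 and 0.26 (SE 0.30) that did not pass in limma (adjusted p = 0.716 and 0.695). Cp, which encodes the copper-carrying ferroxidase ceruloplasmin, was at 6.64 and 6.68 in KKAy at 11 weeks and at 6.24 and 6.28 in C57BL/6J at 11 weeks. This difference of 0.40 (SE 0.10) passed in limma (adjusted p = 0.038), but was lost in 12 of 17 alternatives, leaving out any 1 of the 8 arrays among them (adjusted p up to 0.207). The probe named Hpxn, for the haem carrier hemopexin, differed by 0.31 at 11 weeks and 0.04 at 4 weeks and passed at neither age (limma adjusted p = 0.109 and 0.887). In KKAy it was higher at 11 than at 4 weeks by 0.49 (limma adjusted p = 0.032). Its signals lay between 230170 and 402210 fluorescence units, so the limit for very bright genes holds for Hpxn too.

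Fibrinogen is the clot protein, built from 3 chains whose genes, Fga, Fgb and Fgg, lie within 27.6 kb of chromosome 3 (83100830 to 83128398, mm8). Fga, the alpha chain, was at 7.92 and 7.51 in KKAy at 11 weeks and at 6.47 and 6.25 in C57BL/6J at 11 weeks, and at 7.28 and 6.94 in KKAy at 4 weeks and at 6.45 and 6.35 in C57BL/6J at 4 weeks. The strains did not overlap. The difference was 1.36 at 11 weeks (SE 0.19, 2.57-fold, adjusted p = 0.0056 in limma) and 0.71 at 4 weeks, short of the threshold (adjusted p = 0.0618).

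Fgb, the beta chain, was at 9.13 and 9.63 in KKAy at 11 weeks, 8.81 and 9.40 in KKAy at 4 weeks, 8.92 and 9.10 in C57BL/6J at 11 weeks and 8.44 and 9.14 in C57BL/6J at 4 weeks. Fgb overlapped between strains at 4 weeks and not at 11, but the gap at 11 weeks was small beside the spread between replicates. Fgg, the gamma chain, ran from 8.39 to 9.27 over the KKAy arrays and from 7.97 to 8.78 over the C57BL/6J arrays, and the strains overlapped at 4 weeks and not at 11. The differences of Fgb were 0.37 at 11 weeks and 0.32 at 4 weeks, and those of Fgg 0.38 and 0.26, and none of these 4 passed in limma (adjusted p = 0.428 to 0.684).

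Fgl1 encodes a fibrinogen-like protein that stimulates hepatocyte growth and binds the immune receptor LAG-3. Its brightest probe was at 6.43 and 7.08 in KKAy at 11 weeks and at 5.43 and 5.79 in C57BL/6J at 11 weeks. That difference was 1.15 (SE 0.31) and passed in limma (adjusted p = 0.0474), but was lost in 10 of 17 alternatives (adjusted p up to 0.239), among them leaving out any 1 of 7 of the 8 arrays. At 4 weeks the brightest probe differed by 0.95, which did not pass in limma (adjusted p = 0.104). A dimmer second probe went the other way, by -0.25 at 11 weeks and -0.66 at 4 weeks, so the direction of Fgl1 depends on the probe. The probes are annotated to different sequence records, and what each reads was not tested.

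**Figure D3:**
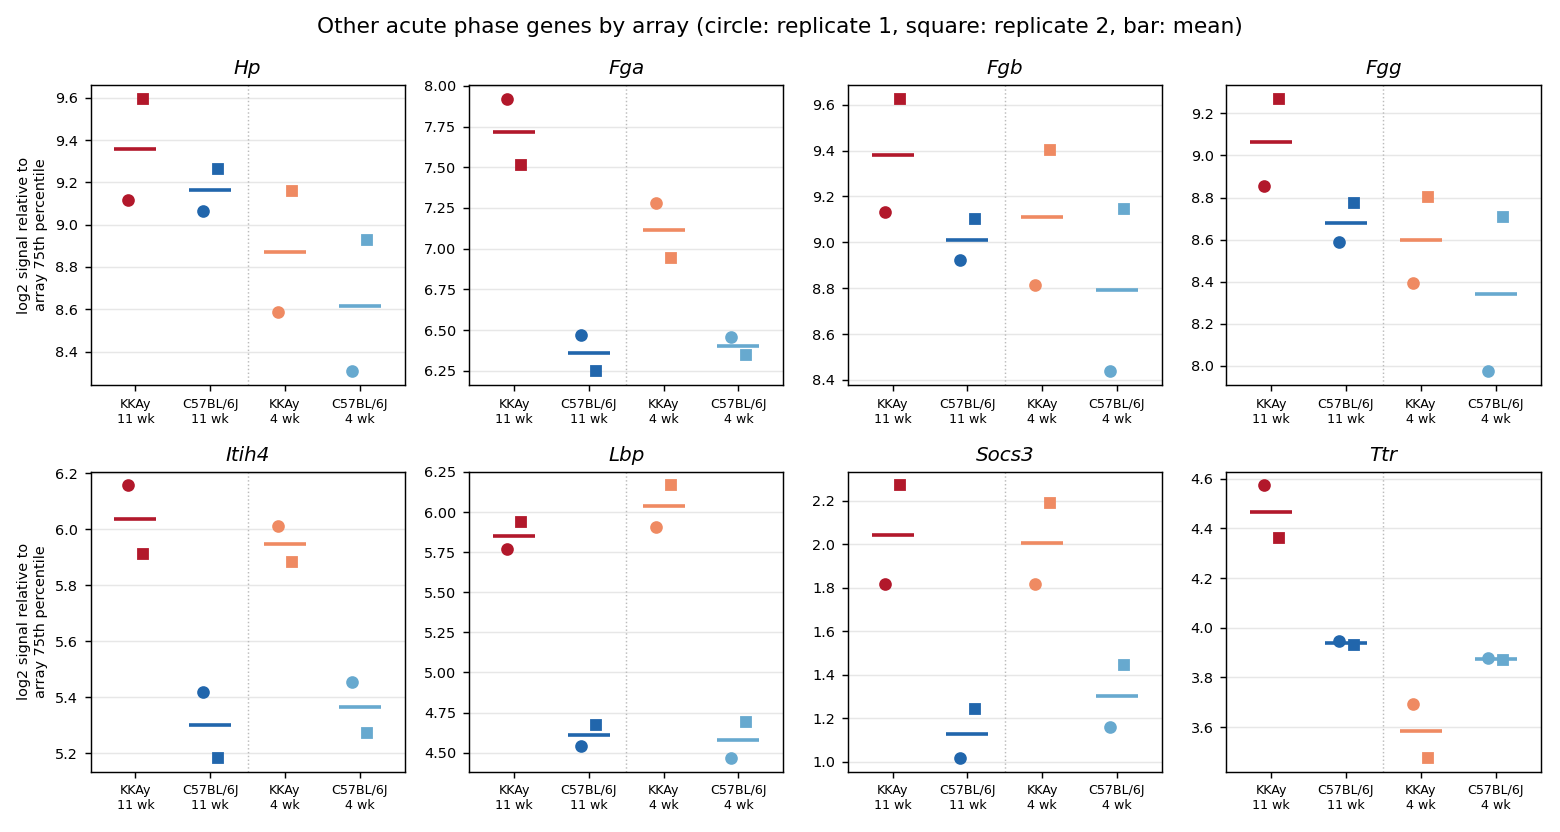
Levels on each array (y axis, log2 signal relative to the array's 75th percentile, a separate scale per gene) of Hp, the 3 fibrinogen genes, Itih4, Lbp, Socs3 and Ttr, drawn for KKAy and C57BL/6J at 11 weeks left of the dotted line and at 4 weeks right of it, with a bar at each mean. Fga, Itih4, Lbp and Socs3 are higher in KKAy on both arrays at both ages. Hp overlaps between strains at both ages, and Fgb and Fgg overlap at 4 weeks.

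Inter-alpha inhibitors are heavy chains that cross-link hyaluronan, joined to bikunin, a protease inhibitor encoded by Ambp. Of these 5 genes, Itih4, whose protein lacks the bikunin link and is induced by interleukin-6, was higher in KKAy, at 6.16 and 5.91 in KKAy at 11 weeks and at 5.42 and 5.18 in C57BL/6J at 11 weeks. Its differences of 0.74 at 11 weeks and 0.58 at 4 weeks (SE 0.15) passed in limma (adjusted p = 0.0186 and 0.0496). The 11-week call was lost in 6 of 17 alternatives. Among them were leaving out either array of C57BL/6J at 11 weeks (0.85 and 0.62) or replicate 1 of KKAy at 11 weeks (0.61). The 4-week call was lost in 13 of 17, among them leaving out any 1 of the 8 arrays. It was also lost with normexp (limma adjusted p = 0.0904), quantile scaling (0.267) and the deposited table (0.0502).

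Itih2 went the other way, at 5.79 and 5.63 in KKAy at 11 weeks and at 6.25 and 6.14 in C57BL/6J at 11 weeks. Its difference was -0.49 (limma adjusted p = 0.025), which was lost in 11 of 17 alternatives, among them leaving out any 1 of 7 of the 8 arrays (adjusted p up to 0.257). Itih1 and Itih3 differed by -0.01 and -0.10 at 11 weeks and by 0.13 and 0.17 at 4 weeks, none past the threshold. Itih1, Itih3 and Itih4 are neighbours within 36.7 kb of chromosome 14 (mm8). Ambp was at 9.21 and 9.77 in KKAy at 11 weeks, 8.81 and 9.37 in KKAy at 4 weeks, 9.08 and 9.32 in C57BL/6J at 11 weeks and 8.45 and 9.23 in C57BL/6J at 4 weeks. The strains overlapped at both ages, and the differences of 0.29 and 0.25 did not pass in limma (adjusted p = 0.616 and 0.745).

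Signals reached 200000 fluorescence units for 6 members: Hp, Fgb, Fgg, Ambp, Saa1 and Saa2. Before scaling, those of the 4 uncalled genes Hp, Fgb, Fgg and Ambp lay between 251850 and 416920 fluorescence units on every array, and for each gene the highest of 8 signals was only 1.15 to 1.30 times the lowest. The scaling value of the arrays, their 75th percentile, spanned 2.52-fold over the same 8 arrays, and the other 29 members spanned 1.63-fold to 52.0-fold. Saa1 and Saa2 reached 396250 and 388870 units, within the same range. No spot was marked as saturated. Whether signal still follows RNA amount at this brightness was not tested, for these 4 genes or for Saa1 and Saa2 in KKAy at 11 weeks.

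The 7 receptors and regulators of cytokine signalling gave 1 higher (Socs3) and 1 lower (Il1rn) at 11 weeks, and 2 higher (Il1r1 and Il6ra) at 4 weeks. That is 28.6% of the 7 at each age, against 21.5% of all genes at 11 weeks and 15.4% at 4 weeks. Socs3, the feedback inhibitor induced by STAT3, was at 1.82 and 2.27 in KKAy at 11 weeks and at 1.02 and 1.24 in C57BL/6J at 11 weeks, and at 1.82 and 2.19 in KKAy at 4 weeks and at 1.16 and 1.44 in C57BL/6J at 4 weeks. The strains did not overlap at either age. By limma the 11-week difference of 0.92 (SE 0.22) passed (adjusted p = 0.0332), and that at 4 weeks, 0.70, did not (adjusted p = 0.0941). The 11-week call was lost in 7 of 17 alternatives. They were no filter on dim probes, the 4 arrays of the comparison alone and leaving out any 1 of 5 of the 8 arrays.

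Stat3 itself differed by 0.32 at 11 weeks and 0.31 at 4 weeks and was not called (limma adjusted p = 0.408 and 0.501). Il6ra, the ligand-binding chain of the interleukin-6 receptor, was at 1.12 and 1.30 in KKAy at 4 weeks, against 0.37 and 0.44 in C57BL/6J at 4 weeks, a difference of 0.81 (SE 0.11, adjusted p = 0.00662 in limma). At 11 weeks it was at 0.17 and 0.28 in KKAy and at 0.16 and 0.09 in C57BL/6J, a difference of 0.10 that was not called. Il1r1, the signalling receptor of interleukin-1, was at 3.54 and 3.59 in KKAy at 4 weeks and at 2.93 and 2.87 in C57BL/6J at 4 weeks, and differed by 0.66 (limma adjusted p = 0.00698). At 11 weeks its difference was 0.34 (adjusted p = 0.053). In a fit of the 4 arrays of 4 weeks alone, the 4-week calls of Il6ra and Il1r1 were lost (limma adjusted p = 0.0518 and 0.0635). Without replicate 1 of C57BL/6J at 4 weeks the call of Il6ra was lost too (0.77). Without replicate 2 of C57BL/6J or of KKAy at 4 weeks that of Il1r1 was lost too (0.63 and 0.63).

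Il1rn encodes the antagonist that blocks the interleukin-1 receptor. It was at -1.44 and -1.84 in KKAy at 11 weeks, 0.61 and 0.34 in KKAy at 4 weeks, -0.55 and -0.90 in C57BL/6J at 11 weeks and -0.05 and -0.23 in C57BL/6J at 4 weeks. KKAy at 11 weeks was the lowest group and KKAy at 4 weeks the highest, with no overlap between strains at either age. The difference was -0.92 at 11 weeks (SE 0.20, adjusted p = 0.025 in limma) and 0.61 at 4 weeks (adjusted p = 0.11), and a second probe gave -1.18 and 0.50. The 11-week call was lost in 6 of 17 alternatives. Among them were spike-in scaling, no filter on dim probes and a fit of the 4 arrays of the comparison alone. The others were leaving out either array of C57BL/6J at 11 weeks (-0.75 and -1.10) or replicate 2 of KKAy at 11 weeks (-0.72). After normexp background correction the differences were -0.67 at 11 weeks and 0.56 at 4 weeks.

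Cebpb and Cebpd encode C/EBP factors that bind acute phase promoters. Cebpb was at 5.48 and 6.13 in KKAy at 11 weeks, 5.08 and 5.62 in KKAy at 4 weeks, 5.67 and 5.97 in C57BL/6J at 11 weeks and 5.77 and 6.16 in C57BL/6J at 4 weeks. The strains overlapped at 11 weeks and not at 4, with differences of -0.02 and -0.61 that did not pass in limma (adjusted p = 0.976 and 0.266). A dimmer second probe of Cebpb gave -0.21 at 11 weeks and -0.92 at 4 weeks. At 4 weeks that probe was at 2.69 and 2.75 in KKAy and at 3.63 and 3.66 in C57BL/6J. Cebpd was at 2.71 and 3.41 in KKAy and at 3.70 and 4.12 in C57BL/6J at 11 weeks, without overlap. At 4 weeks it was at 3.32 and 3.93 in KKAy and at 3.87 and 4.37 in C57BL/6J, with overlap. Its differences of -0.85 and -0.50 did not pass in limma either (adjusted p = 0.14 and 0.446).

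Lbp and Cd14 encode the plasma carrier and the co-receptor of bacterial endotoxin. Lbp was at 5.77 and 5.94 in KKAy at 11 weeks, 5.91 and 6.17 in KKAy at 4 weeks, 4.54 and 4.67 in C57BL/6J at 11 weeks and 4.47 and 4.69 in C57BL/6J at 4 weeks. All KKAy arrays lay above all C57BL/6J arrays, and the ages overlapped within each strain. By limma the difference was 1.24 at 11 weeks (SE 0.15, 2.37-fold, adjusted p = 0.00293) and 1.46 at 4 weeks (2.75-fold, adjusted p = 0.00219). Cd14, which is made mainly by macrophages, lay between 0.06 and 0.47 on all 8 arrays and was not called at either age (0.16 and -0.23, adjusted p = 0.283 and 0.18).

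Macrophage markers differed the opposite way from the inducible plasma proteins. Of 14 macrophage and Kupffer cell markers, 7 were lower in KKAy at 11 weeks (50%, against 11.6% of all genes). At 4 weeks 12 were lower (85.7%, against 9.01% of all genes). None of the 14 was higher at either age by limma, also at an unadjusted p under 0.05. Their summed signal was 82.2 to 105 in KKAy and 110.5 to 127 in C57BL/6J at 11 weeks, and 111 to 136 in KKAy and 224 to 272 in C57BL/6J at 4 weeks. Of 6 adipocyte markers 5 were tested, and Lep was not well above background. Their summed signal was 9.46 to 13.5 in KKAy and 67.2 to 77.5 in C57BL/6J at 11 weeks, and 65.7 to 84.6 in KKAy and 47 to 61.2 in C57BL/6J at 4 weeks. At 11 weeks 2 were lower in KKAy, among them Cidec by -3.58, a lipid droplet protein that fatty hepatocytes also make, and at 4 weeks 1 was higher and 1 lower. Calls made up 40% of the 5 at each age, against 21.5% of all genes at 11 weeks and 15.4% at 4 weeks. Of 9 stellate cell and fibroblast markers, 6 were lower and 1 higher in KKAy at 11 weeks and 2 lower at 4 weeks, with sums of 40.4 to 48.4 in KKAy and 71.7 to 79.3 in C57BL/6J at 11 weeks, and of 69.4 to 79.8 in KKAy and 83.5 to 95 in C57BL/6J at 4 weeks. These calls made up 77.8% of the 9 at 11 weeks and 22.2% at 4 weeks, against the same shares of all genes. The part of any of these cells in the values of Saa3, Il1rn and Cd14 was not tested.

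Metallothioneins bind zinc and copper and are induced by interleukin-6, glucocorticoids and fasting. Mt2 was at 6.93 and 7.53 in KKAy at 11 weeks, 7.79 and 8.31 in KKAy at 4 weeks, 6.65 and 6.96 in C57BL/6J at 11 weeks and 7.32 and 7.94 in C57BL/6J at 4 weeks, so the strains overlapped at both ages. Neither Mt2 (0.43 at 11 weeks and 0.42 at 4 weeks, SE 0.32) nor Mt1 (0.10 and 0.42, SE 0.12) passed in limma, the adjusted p of Mt1 at 4 weeks being 0.0737. A dim second probe of Mt1 read 2.15 at 11 weeks, where its C57BL/6J arrays were at -1.58 and -1.59, and -0.04 at 4 weeks, so the probes of Mt1 disagree.

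Ttr encodes transthyretin, a carrier of thyroid hormone and retinol whose liver output falls in an acute phase response. It was at 4.57 and 4.36 in KKAy at 11 weeks, 3.69 and 3.48 in KKAy at 4 weeks, 3.95 and 3.93 in C57BL/6J at 11 weeks and 3.88 and 3.87 in C57BL/6J at 4 weeks. KKAy was above C57BL/6J at 11 weeks and below it at 4 weeks, with no overlap. By limma the 11-week difference of 0.53 (SE 0.13) passed (adjusted p = 0.0327) and that of -0.29 at 4 weeks did not (adjusted p = 0.212). The 11-week call was lost in 10 of 17 alternatives, among them leaving out any 1 of 6 of the 8 arrays (adjusted p up to 0.191). The probe named Alb1, for albumin, the other carrier that falls, differed by 0.09 and 0.25 (SE 0.24) and was not called (limma adjusted p = 0.854 and 0.621). Its signals lay between 401930 and 485380 units on every array, 1.21-fold from lowest to highest, so the limit given above for Hp, Fgb, Fgg and Ambp holds for Alb1 too.

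With age, KKAy livers had more of the serum amyloid A and orosomucoid transcripts and less of several receptors and regulators. Between 11 and 4 weeks in KKAy, 8 members were higher and 4 lower (36.4% of the 33), against 18.6% of all genes, 7.91% higher and 10.7% lower. In C57BL/6J, 4 members were higher and 2 lower (18.2%), against 8.36% of all genes, 1.9% higher and 6.46% lower. The strain and age comparisons share arrays, so their values are given side by side and not as separate evidence.

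In KKAy, Saa3 was higher at 11 than at 4 weeks by 3.33 (SE 0.19, adjusted p = 0.000425 in limma), Saa2 by 2.91, Saa1 by 2.77 and Saa4 by 1.29. In C57BL/6J, Saa2 was higher by 1.52, Saa1 by 1.33 and Saa3 by 1.19 (limma adjusted p = 0.0253, 0.0216 and 0.0179), while Saa4 differed by 0.36 and was not called. The calls of Saa1, Saa2 and Saa3 in C57BL/6J were each lost when any 1 of the 4 C57BL/6J arrays was left out (adjusted p up to 0.164), and that of Saa4 in KKAy when any 1 of 5 of the 8 arrays was left out (adjusted p up to 0.149). Orm3 was higher at 11 weeks by 1.43 in KKAy and by 1.90 in C57BL/6J (adjusted p = 0.00121 and 0.000889 in limma). Orm2 and Orm1 were higher in KKAy by 0.86 and 0.65, and differed in C57BL/6J by 0.52 and 0.34, short of the threshold (adjusted p = 0.0604 and 0.105). The Orm1 call in KKAy was lost with spike-in scaling (0.45, limma adjusted p = 0.135) and in a fit of the 4 KKAy arrays alone (adjusted p = 0.0953). Leaving out replicate 1 of KKAy at 4 weeks (0.61) ended it too.

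**Figure D4:**
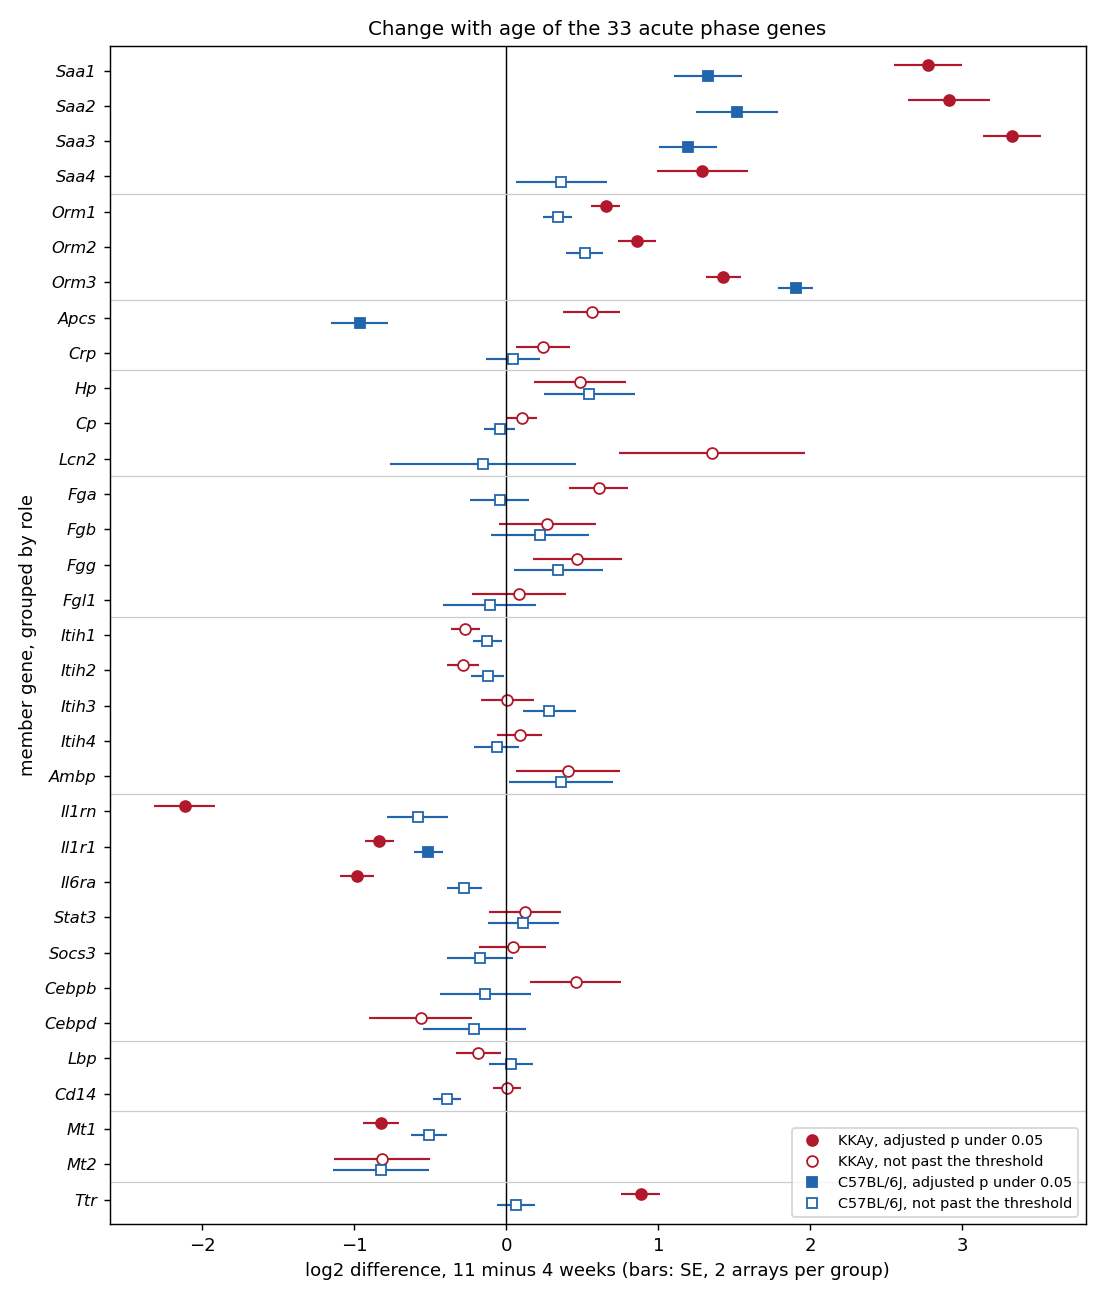
Difference between 11 and 4 weeks (x axis, log2, 11 minus 4 weeks) for each of the 33 members (y axis, grouped by role) in KKAy (circles) and C57BL/6J (squares), with bars of 1 SE from 2 arrays per group and filled symbols for calls. Serum amyloid A and orosomucoid genes lie right of 0 in both strains, Il1rn, Il1r1, Il6ra, Mt1 and Mt2 lie left of 0 in both, and Apcs lies on opposite sides.

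The members lower at 11 weeks in KKAy were Il1rn by -2.12 (SE 0.20, adjusted p = 0.0021 in limma), Il6ra by -0.98, Il1r1 by -0.84 and Mt1 by -0.83. Leaving out replicate 2 of KKAy at 4 weeks ended the Mt1 call (-0.82, adjusted p = 0.051). In C57BL/6J, Il1r1 was lower by -0.51 (adjusted p = 0.0279) and lost its call when any 1 of 6 of the 8 arrays was left out (adjusted p up to 0.2015). Apcs was lower at 11 weeks in C57BL/6J by -0.97 (adjusted p = 0.0341 in limma) and differed in KKAy by 0.56, short of the threshold (adjusted p = 0.096). The Apcs call was lost when any 1 of the 4 C57BL/6J arrays was left out (adjusted p up to 0.203). Ttr was higher at 11 weeks in KKAy by 0.88 (adjusted p = 0.00735) and differed by 0.06 in C57BL/6J. Crp, Lbp, Lcn2, Fga and Itih4 were not called with age in either strain, with differences between -0.18 and 1.35 in KKAy and between -0.15 and 0.04 in C57BL/6J.

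Whether the strain difference itself changed with age was tested as the interaction. It passed for 3 members (9.09%), against 3.78% of all genes, with 2 above 0 and 1 below, against 2.05% and 1.72%. For Saa3 the strain difference was larger at 11 than at 4 weeks by 2.13 (SE 0.27, adjusted p = 0.0169 in limma), and for Apcs by 1.53 (adjusted p = 0.0411). For Il1rn it was -1.53 (adjusted p = 0.0486). The strain difference of Il1rn was -0.92 at 11 weeks and 0.61 at 4 weeks, and only the former was called. The call of Saa3 was lost when any 1 of 7 of the 8 arrays was left out, and those of Apcs and Il1rn when any 1 array was left out, with the value between 1.95 and 2.31 for Saa3, 1.35 and 1.71 for Apcs and -1.74 and -1.33 for Il1rn. Ttr, Saa1 and Il6ra came next, at 0.82, 1.45 and -0.71, short of the threshold (limma adjusted p = 0.0715, 0.0735 and 0.0794). Among the 8 members called at 11 weeks alone, only Il1rn passed this test, and neither Il1r1 nor Il6ra did.

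**Figure D5:**
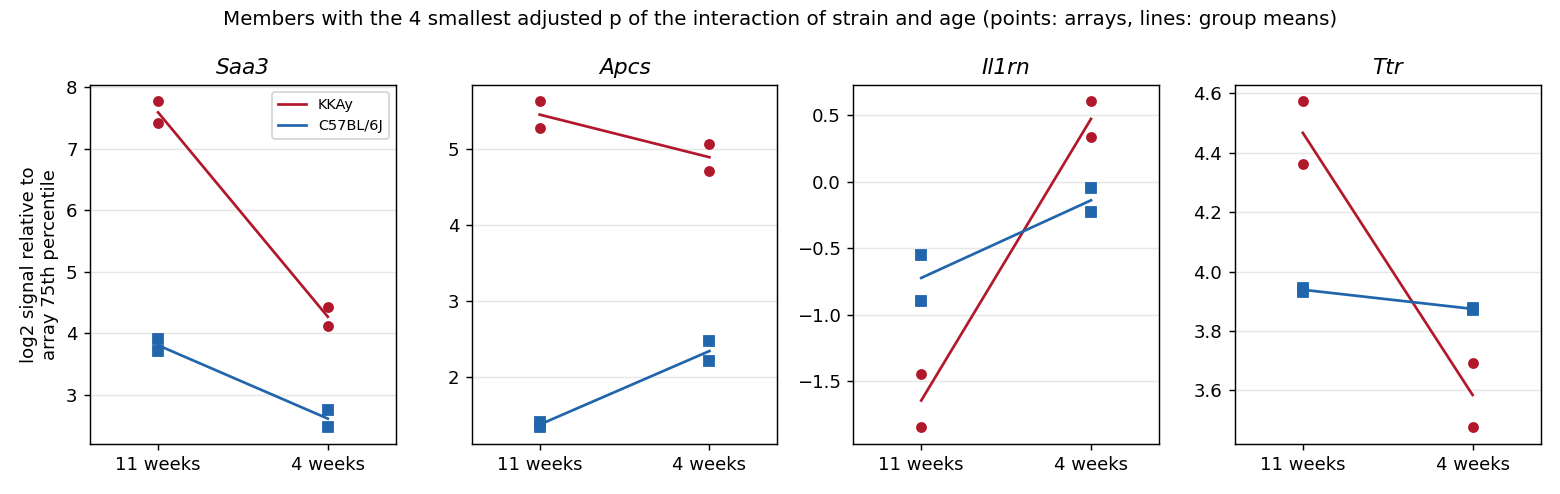
Levels on each array (y axis, log2 signal relative to the array's 75th percentile, a separate scale per gene) of Saa3, Apcs, Il1rn and Ttr at 11 weeks and 4 weeks, with KKAy as circles and C57BL/6J as squares and lines through the group means. The strain gap of Saa3 is 3.79 at 11 weeks and 1.66 at 4 weeks, and the lines of Il1rn and Ttr cross.

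Among 44 genes of cytokine signalling outside the set, all tested, 5 were higher and 6 lower in KKAy at 11 weeks (25%, median 0.09, against 21.5% of all genes). At 4 weeks 4 were higher and 7 lower (25%, median -0.12, against 15.4% of all genes). Il6, Il1a and Il1b were called at neither age. Tnf was lower by -0.90 at 11 weeks and -0.70 at 4 weeks (limma adjusted p = 0.00543 and 0.0166). After normexp background correction Tnf differed by -0.005 and 0.08. Nfkbiz, an NF-kappaB cofactor needed for Lcn2 induction in mouse macrophages, was at -0.10 and -0.10 in KKAy at 11 weeks and at -1.68 and -1.74 in C57BL/6J at 11 weeks, and was higher by 1.61 at 11 weeks and 0.79 at 4 weeks (limma adjusted p = 0.000267 and 0.00344). Fkbp5, a glucocorticoid-induced chaperone, was at 0.13 and 0.11 in KKAy at 11 weeks, against 2.22 and 2.03 in C57BL/6J at 11 weeks, lower by -2.0 (limma adjusted p = 0.000298), and differed by 0.22 at 4 weeks, with an interaction of -2.23 (adjusted p = 0.00408). Socs2 and Cish, feedback inhibitors of growth hormone and cytokine receptors, were also called: Socs2 was higher by 1.63 at 11 weeks and differed by -0.37 at 4 weeks, with an interaction of 2.0 (limma adjusted p = 0.0119), and Cish was higher by 0.98 at 11 weeks and 1.18 at 4 weeks. Relb, an NF-kappaB subunit, was lower by -0.77 at 4 weeks and differed by 0.15 at 11 weeks, with an interaction of 0.92 (limma adjusted p = 0.0339).

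Among 24 other secreted or iron-handling liver proteins, 22 were tested, of which 4 were higher and 2 lower in KKAy at 11 weeks (27.3%, against 21.5% of all genes) and 2 higher and 1 lower at 4 weeks (13.6%, against 15.4%). Cxcl1, a neutrophil-attracting chemokine, was at 0.86 and 1.23 in KKAy at 11 weeks and at -4.19 and -4.00 in C57BL/6J at 11 weeks, and at -2.40 and -2.14 in KKAy at 4 weeks and at -4.29 and -4.09 in C57BL/6J at 4 weeks. The difference was 5.14 at 11 weeks and 1.92 at 4 weeks (limma adjusted p = 7.5e-05 and 0.00167), and 3.73 and 1.24 after normexp background correction. Steap4, a metalloreductase induced by inflammation, was higher by 2.48 and 1.06. Tfrc, the transferrin receptor, was lower by -1.24 at 11 weeks and differed by 0.47 at 4 weeks, with an interaction of -1.71 (limma adjusted p = 0.00964). Hamp, which encodes the iron hormone hepcidin and is read as Hamp1 on the array, was lower by -2.16 at 4 weeks and differed by -0.49 at 11 weeks, and its interaction did not pass (1.67, limma adjusted p = 0.126).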

How the data were processed

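Liver RNA was measured on 8 one-colour arrays (4 groups of 2, by the labels' strain and age). Agilent Feature Extraction 9.5.1.1 is named by the submitters' processing notes. Per the file headers it turned spot intensity into a background-subtracted processed signal, with no scaling between arrays. The deposited value table holds log2 values that equal the log2 processed signal minus 1 constant per array, within 0.001 for 100% of values. Its column medians ran from -3.96 to -3.67, and it served as an alternative. Control spots and flagged spots (59 to 89 per array) were left out, no spot was saturated (0 on each array), spots of a probe were averaged, and the 75th percentile of the array was subtracted on the log2 scale. A probe was kept (25319) if 1 group or more had it well above background on both its arrays, and the brightest stood for each gene name. Using limma 3.58.1 (R 4.3.3), 4 group means were fitted over all 8 arrays (4 residual and 1.93 prior degrees of freedom), with Benjamini-Hochberg adjustment over all genes at 0.05. The fit was run on simulated arrays with independent noise, and so without the shared deviations of same-numbered arrays given below. Probe positions are those of the files (mm8). Alternatives were normexp (offset 50), quantile and spike-in scaling, the deposited table, filters, the mean of all probes, the 4 arrays of a comparison alone, a replicate block and leaving out each array. Members and lists were chosen with earlier results of these data known, and values on every array are given at least for members with the 8 largest called strain differences at each age, the 4 smallest adjusted p of the interaction and the brightest of each role. From each of the other lists, at most 3 called genes per strain comparison are named, those with the smallest adjusted p. Il6, Il1a, Il1b and Tnf are given besides these, because they encode the cytokines described at the start. Marker genes were named after their values were seen. Tables and figures were made with pandas 2.3.3, numpy 2.4.6 and matplotlib 3.10.9 in Python 3.11.15.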

Additional observations from a re-analysis of the deposited data

Results flagged for a closer look

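The strain difference at 11 weeks minus that at 4 weeks passed the interaction test of limma for 3 members. It was 2.13 for Saa3 and 1.53 for Apcs, so KKAy and C57BL/6J stood farther apart at 11 weeks, and -1.53 for Il1rn, which was lower in KKAy at 11 weeks and not called at 4 weeks.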

How the results depend on the processing

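At 11 weeks 11 of the 19 members called between strains kept their call under all 17 alternatives, at 4 weeks 7 of 13, with age 5 of 12 in KKAy and 1 of 6 in C57BL/6J, and in the interaction 0 of 3 under 16. The 11-week count of 19 became 12 without the filter on dim probes and 12 in a fit of the 4 arrays alone, and 11 to 16 when 1 array was left out. The 4-week count of 13 became 20 with spike-in scaling, which moved the median of all genes to 0.36 at 4 weeks and 0.13 at 11 weeks, and 9 to 13 with 1 array left out. With spike-in scaling 16 members were higher and 0 lower at 11 weeks (2 lower at an unadjusted p under 0.05 in limma), and 75.6% of all calls at 4 weeks were higher in KKAy, against 41.4% with the main scaling. With age, the KKAy count of 12 became 5 in a fit of 4 arrays and 10 to 12 with 1 array left out, and the C57BL/6J count of 6 became 1 without the filter and 1 to 6 with 1 array left out. The interaction count of 3 became 5 with quantile scaling, 5 with the mean of all probes, 0 without the filter (7 at an unadjusted p under 0.05) and 0 to 1 with 1 array left out. No value called with the main settings changed sign under an alternative, while 47 of 165 values, all uncalled, changed sign under at least 1. In 1 of these the alternative was itself called: the Mt1 interaction was 0.94 with the mean of its 2 disagreeing probes and -0.31 with the brightest. Apart from the probes averaged and the genes or arrays left out, the cause of these shifts was not tested.

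Labels number the replicates 1 and 2 in each group but do not say what a number shares. Deviations of same-numbered arrays correlated at 0.53 to 0.672 in the 6 pairs of groups. With the replicate number as a block, 24 members were called at 11 weeks, 27 at 4 weeks, 24 with age in KKAy, 16 with age in C57BL/6J and 16 in the interaction, and all genes called at 4 weeks were 7483, against 2631 without the block. Of the 12 members called at neither age without it, 6 were called with it. Cebpd was lower in KKAy at both ages (limma adjusted p = 0.00121 at 11 weeks and 0.0087 at 4 weeks) and Cebpb at 4 weeks (0.00723), Stat3 (0.0323 and 0.0438) and Mt2 (0.0131 and 0.0178) were higher at both ages and Mt1 at 4 weeks (0.0189), and Cd14 was higher at 11 weeks (0.0475) and lower at 4 weeks (0.0212). Hp, Fgb, Fgg, Itih1, Itih3 and Ambp remained uncalled. Each member was well above background on all 8 arrays, but 3 calls were lost with normexp background correction. They were Itih4 at 4 weeks (0.56, limma adjusted p = 0.0904) and Ttr at 11 weeks (0.49, adjusted p = 0.0721). The third was the Il1rn interaction (-1.235, adjusted p = 0.0596).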
